A study of Mus musculus with 2 samples.

Results

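The genes described here are 38 genes of the endoplasmic reticulum (ER), the compartment in which secreted and membrane proteins enter the secretory route, fold and are checked. They were taken as a list of gene symbols and matched to the probe sets of a mouse expression array, with the brightest probe set standing for each gene. Of the 38 genes, 37 were among the 18193 on the arrays with a probe set of their own. The signal of each of these 37 was above the floor of 62.2 on both arrays. The other gene, Sec61g, the smallest subunit of the Sec61 channel, was covered by 1 probe set that also names other genes, so it has no value here. The study set cultured B-lymphoma cells with the genotype Cdk4+/+:Eµ-Myc against B-lymphoma cells with the genotype Cdk4-/-:Eµ-Myc, both from mouse lymph nodes, with 1 array each. Both genotypes carry the Eµ-Myc transgene, in which the immunoglobulin heavy chain enhancer drives Myc in B-lineage cells. The labels give no treatment, age or mouse strain and do not say whether an array stands for 1 tumour. With 1 array per genotype there is no replicate, and no test, standard error or p-value exists for a difference between them.

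Proteins enter the ER through the Sec61 channel, lose their signal peptide, receive sugar chains and fold with the help of chaperones and disulfide isomerases. Proteins that do not fold are sent back to the cytosol for degradation. When unfolded protein builds up, the membrane sensors IRE1, PERK and ATF6 start the unfolded protein response, which slows translation and raises transcription of chaperone and degradation genes. B cells enlarge this machinery when they become antibody-secreting plasma cells.

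The targeted gene was at odds with the labels of the arrays. The 3 Cdk4 probe sets read 1.19, 1.18 and 3.71 for the sample labelled wild type, against 4945, 4506 and 6958 for the sample labelled null. Every direction given here takes the labels at their word and would be opposite if they had been swapped. The trimmed mean signal was 500.003 on both arrays, and 9418 genes were above the floor on both. The 8 pan-B markers analysed here were above the floor on both arrays. Of the T and NK cell markers, 1 of 7 was above the floor, Cd8a at 81.6 and 63.7, and Klrb1c had no probe set of its own.

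None of the ER genes reached 2-fold, and the size of their typical difference was near that of other genes. Their median absolute difference was 0.26 on the log2 scale, beside 0.27 over all genes above the floor on both arrays and 0.24 over those with a mean signal of 500 or more. At 2-fold or more, 0 of the 37 were higher and 0 lower on the array labelled null, beside 4.26% and 3.27% of all 9418 genes. At 1.5-fold or more, 2 were higher (Sdf2l1 and Pdia4) and 2 lower (Atf6 and Ern1), beside 11.1% and 9.56% of all genes. Among the 6238 genes with a mean signal of 500 or more, where all of the 37 but Ern1 lie, the shares were 2.87% and 1.78% at 2-fold and 9.06% and 6.7% at 1.5-fold. Their differences (log2 signal on the array labelled null minus the array labelled wild type) ran from -0.76 to 0.93. The median was 0.14, beside 0.00 over all genes, and 25 of the 37 were above 0, beside 50% of all genes. In the brightest of 10 bins of signal, which holds many of the 37, the median of all genes was -0.14 and 30.3% were above 0. Relative to the median of their own bins, the 37 had a median of 0.16, with 27 above 0. Most of the 37 were thus slightly higher on the array labelled null, and 33 stayed within 1.5-fold.

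In place of replicates, disagreement among probe sets that read 1 gene gave the error of a single difference. In 3082 genes that had a pair of them above the floor, this SD was 0.31 for 1 probe set on the log2 scale. Paired probe sets stayed within 0.84 of each other in 95% of these genes. The ER genes were mostly bright, and over the 1085 genes with both probe sets at a mean signal of 500 or more the SD was 0.22 and the 95% limit 0.62. That second measure was chosen after the values were seen. Neither covers the variation between cultures or tumours. Against the limit of 0.84, 1 of the 37 genes stood outside it, Sdf2l1, and Atf6, Ern1 and Pdia4 lay inside. Against the limit of 0.62, Sdf2l1, Pdia4 and Atf6 stood outside it, while Ern1 is too dim for that limit to apply. Among the 6238 bright genes, 8.16% were higher and 5.96% lower than this limit.

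**Figure D1:**
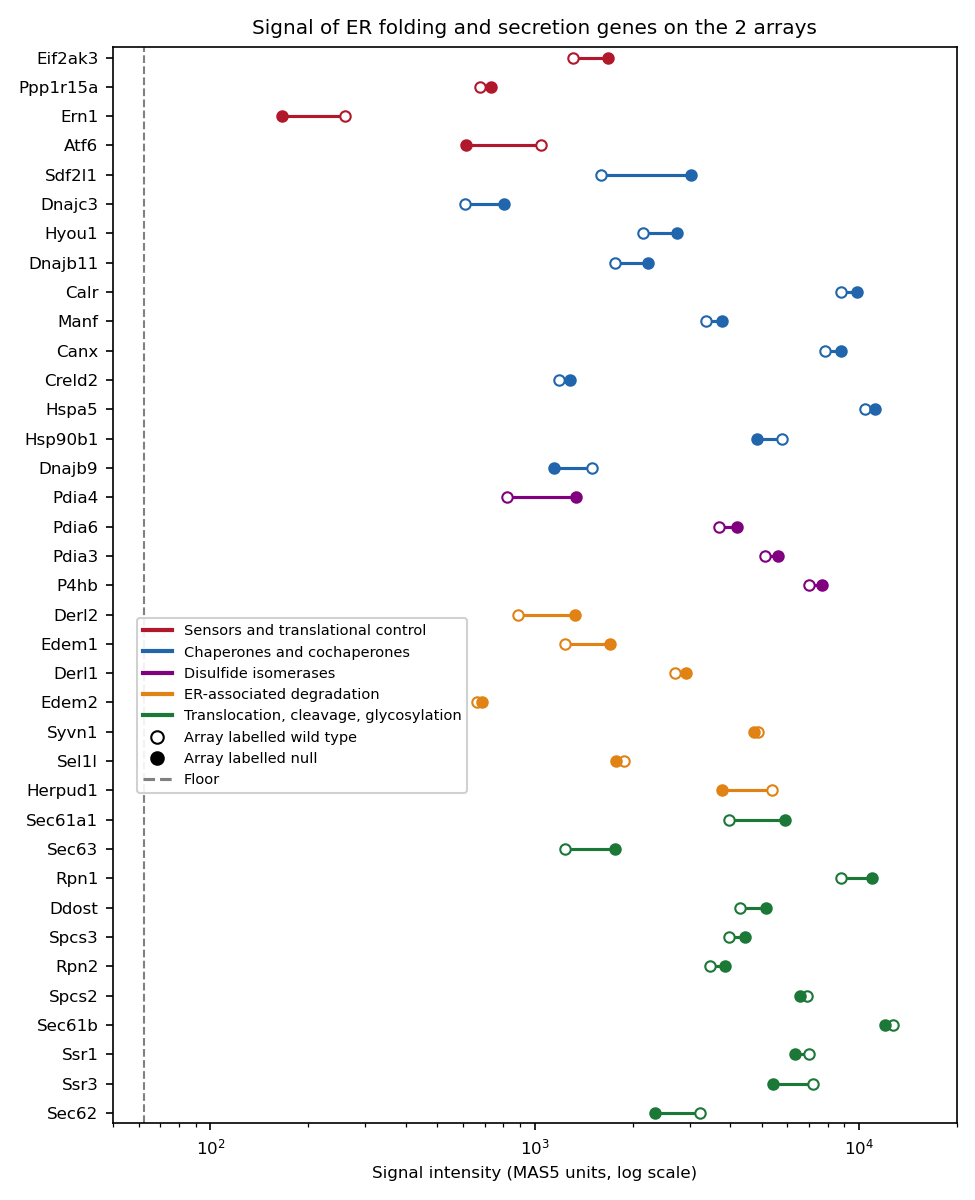
Signal intensity of the 37 measured genes on a log axis, with an open circle for the array labelled wild type and a filled circle for the array labelled null, coloured by role and ordered within each role by difference. The dashed line is the floor of 62.2, and the longest lines are those of Sdf2l1, Atf6, Pdia4 and Ern1.

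**Figure D2:**
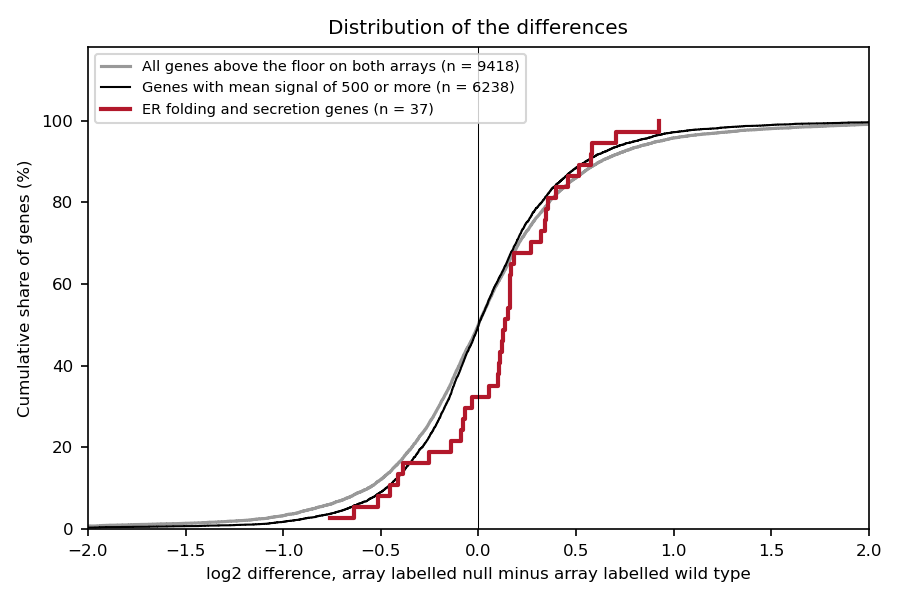
Cumulative share of genes in percent against the log2 difference (array labelled null minus array labelled wild type) for the 37 ER genes, all 9418 genes above the floor on both arrays and the 6238 of them with a mean signal of 500 or more. The curve of the ER genes lies to the right of the others around its median of 0.14 and ends inside the range from -1 to 1.

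By their brightest probe sets the sensors went in opposite directions, with the transcripts of ATF6 and IRE1 lower and that of PERK higher on the array labelled null. Only for Atf6 did the other probe sets repeat the direction. Atf6 encodes a membrane factor that is cut in the Golgi to release a transcription factor. It stood at 1042 where Cdk4 was labelled intact and 614 where it was labelled null, 1.70-fold lower. All 3 of its probe sets above the floor were lower, between -0.76 and -0.37. Ern1 encodes IRE1, the endonuclease that splices the Xbp1 transcript, and stood at 259 against 166. Its difference of -0.64 rested on that probe set, since its other 2 above the floor read near the floor on both arrays, with differences of 0.01 and 0.03. Eif2ak3 encodes PERK, the kinase that slows translation by phosphorylating eIF2α, and stood at 1308 against 1674, a difference of 0.36. Its other probe set above the floor, a dim one, gave -0.03. Relative to the median of its chromosome, 0.24, Eif2ak3 stood at 0.11. Ppp1r15a encodes GADD34, which brings a phosphatase to eIF2α and restores translation. It stood at 676 against 734, a difference of 0.12.

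Chaperone genes were mostly higher on the array labelled null by small amounts. Of the 11 chaperones and cochaperones, 9 were above 0 and 2 below, beside 50% of all genes above 0, with a median of 0.16. Hspa5 encodes BiP, the HSP70 chaperone of the ER that also holds the sensors inactive. Its brightest probe set read 10383 against 11153, a difference of 0.10, and its other 2 probe sets differed by 0.06 and 0.35. The lectin chaperones, which bind proteins with trimmed sugar chains, differed by similar amounts. Calr (calreticulin) stood at 8784 against 9867 and Canx (calnexin) at 7856 against 8786, differences of 0.17 and 0.16. Hsp90b1, which encodes the HSP90 of the ER (GRP94), was lower on the array labelled null, at 5786 against 4848, a difference of -0.26.

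The factors that work with BiP showed more spread. Sdf2l1, which encodes a partner of BiP and its J-domain cochaperones, had the highest difference of the 37 genes. It stood at 1595 against 3033, 1.90-fold higher, and was read by 1 probe set. Dnajc3, a J-domain cochaperone that also inhibits PERK, stood at 608 against 801 (0.40), and 4 of its probe sets passed the floor on both arrays, each of them above 0. Dnajb11, another J-domain cochaperone of the ER, stood at 1759 against 2228 (0.34). Dnajb9, a J-domain cochaperone that restrains IRE1, was on the other side, at 1495 against 1146 (-0.38). These 3 J-domain genes thus did not share a direction. Hyou1, the ER relative of HSP110 that exchanges nucleotides on BiP, stood at 2149 against 2737 by its brightest probe set. That is a difference of 0.35, but a second one went from 485 to 1063 (1.13) and another from 130 to 228 (0.81). The brightest one shares sequence with other transcripts, and without it Hyou1 was 2.19-fold higher. Manf, a small secreted protein of the stress response, and Creld2, an ER protein with disulfide isomerase activity, differed by 0.16 and 0.11.

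Several of these genes carry the ER stress element in their promoters, and none of those reached 1.5-fold by its brightest probe set. A dimmer probe set of Canx did, at 0.79. The element is CCAAT and CCACG with 9 bases between them, where the general factor NF-Y binds the first part and ATF6 or XBP1 the last. RefSeq promoter windows of the assembly GRCm38.p6, from 250 bases before to 50 after each start, were at hand for 32 of the 38 genes. On either strand the element was in 8 of these 32 genes and in 0.119% of all 32851 windows. The 9 stretches are shown because they hold the element in chaperone, isomerase and degradation genes side by side. Each is given 5′ to 3′ on the strand of its gene, with the element in capitals and 20 bases on each side. In Calr, Creld2 and the second stretch of Hsp90b1 it lies on the opposite strand and therefore reads CGTGG first.
Hspa5, chr2:34772005-34772063, + strand: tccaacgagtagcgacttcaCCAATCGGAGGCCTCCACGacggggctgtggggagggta
Hsp90b1, chr10:86705618-86705676, - strand: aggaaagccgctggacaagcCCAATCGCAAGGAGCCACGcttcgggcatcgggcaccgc
Hsp90b1, chr10:86705513-86705571, - strand: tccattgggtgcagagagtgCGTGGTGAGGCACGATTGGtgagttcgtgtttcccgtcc
Calr, chr8:84847055-84847113, - strand: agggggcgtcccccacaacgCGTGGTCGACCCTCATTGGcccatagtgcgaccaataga
Canx, chr11:50325780-50325838, - strand: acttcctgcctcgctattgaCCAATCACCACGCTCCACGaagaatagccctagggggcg
Dnajc3, chr14:118937807-118937865, + strand: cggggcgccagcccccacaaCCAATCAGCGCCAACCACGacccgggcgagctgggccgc
Creld2, chr15:88819500-88819558, + strand: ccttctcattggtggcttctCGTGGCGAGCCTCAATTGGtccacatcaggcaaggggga
Pdia6, chr12:17266471-17266529, + strand: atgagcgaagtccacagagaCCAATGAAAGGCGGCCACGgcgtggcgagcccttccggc
Syvn1, chr19:6046512-6046570, + strand: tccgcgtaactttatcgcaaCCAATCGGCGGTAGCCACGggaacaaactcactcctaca

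The element ended between 26 bases before the start, in Syvn1, and 194 before it, in the first stretch of Hsp90b1. The 8 genes with it had differences from -0.26 to 0.40 and a median of 0.14, with 6 above 0 and 0 at 1.5-fold. The 23 measured genes with a window and without this element had a median of 0.13 and ran from -0.64 to 0.93, with 3 at 1.5-fold. The medians were alike, and the range was wider among the more numerous genes without the element. Of the 6238 genes with a mean signal of 500 or more, 9.06% were higher and 6.7% lower at 1.5-fold. Beside these shares, 0 of 8 does not set the genes with the element apart. Of all genes, 50% were above 0. The shorter ER stress element II, ATTGG and CCACG with 1 base between them, was found in Herpud1 and Dnajb11 and in 0.0365% of all windows. Herpud1 is shown because its difference of -0.52 was on the other side from the 0.34 of Dnajb11, where the element begins at base 8 after the start.
Herpud1, chr8:94386357-94386407, + strand: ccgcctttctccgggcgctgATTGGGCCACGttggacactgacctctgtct
The core of the unfolded protein response element, TGACGTG, was in 1 of the 32 genes, Hspa5, and in 2.01% of all windows. The core of the ATF4 composite element, TGATGCAA, was in 1, Herpud1, and in 0.895%. Sdf2l1 and Pdia4, the genes with the highest differences, had none of these 4 in their windows, which says only that the letters are not there.

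All 4 disulfide isomerases had a higher signal on the array labelled null, and Pdia4 was apart from the other 3. Of all genes, 50% were above 0 and 11.1% were higher at 1.5-fold. Pdia4 encodes ERp72, an isomerase that works in the BiP complex, and stood at 819 against 1337, 1.63-fold higher, by its 1 probe set above the floor. Pdia3 encodes ERp57, the partner of calreticulin and calnexin, at 5125 against 5629. Pdia6 stood at 3691 against 4183, and P4hb, which encodes protein disulfide isomerase itself, at 7013 against 7658. These 3 differed by 0.13 to 0.18, well inside the probe set spread. A dim second probe set of Pdia6 read 104 against 100.7.

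Degradation genes were on both sides of 0, with 4 of 7 above it, a median of 0.06 and 0 at 1.5-fold. Over all genes, 50% were above 0, with 11.1% higher and 9.56% lower at 1.5-fold. Herpud1, a membrane protein that gathers the ubiquitin ligase complex and is induced strongly by ER stress, was lower on the array labelled null. It stood at 5394 against 3771, 1.43-fold lower, and its second probe set also was, at 4196 against 3108. Derl2, one of the derlins that help move proteins out of the ER, stood at 889 against 1332, just under 1.5-fold higher. Its second probe set gave 0.18, and its relative Derl1 stood at 2711 against 2914, with all 4 probe sets between 0.10 and 0.26. Edem1, a lectin that takes misfolded glycoproteins to degradation, stood at 1241 against 1707 (0.46), and its relative Edem2 at 663 against 689 (0.06).

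The ubiquitin ligase at the core of the degradation complex hardly differed. Syvn1, which encodes the ligase HRD1, stood at 4863 against 4751, a difference of -0.03. Sel1l, which encodes its adaptor, stood at 1885 against 1782 (-0.08), but its 5 probe sets ran from -0.53 to 0.16 and did not share a sign.

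Translocation and glycosylation genes were split, with 6 of the 11 measured genes above 0 and 5 below, a median of 0.15 and 0 at 1.5-fold. Over all genes, 50% were above 0, with 11.1% higher and 9.56% lower at 1.5-fold. With chromosome medians set to 0, 8 of the 11 were above 0 and the median was 0.078, and without shared probe sets it was 0.047. Under quantile normalization Sec61b and Spcs2 turned, to 0.14 and 0.014. Sec61a1 encodes the pore of the channel and stood at 3959 against 5911, 1.49-fold higher. All 6 of its probe sets were above 0, between 0.37 and 0.70. Sec61b, a small subunit, stood at 12739 against 11959 (-0.09). Sec63, the J-domain protein that brings BiP to the channel, was higher, at 1239 against 1770 (0.51), with all 5 probe sets above 0. Its partner Sec62 was lower, at 3222 against 2353 (-0.45), with all 4 probe sets below 0. The channel and its helpers therefore held differences in both directions that repeated across probe sets.

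The subunits beside the channel showed the same split. Ssr1 and Ssr3, subunits of the translocon-associated protein complex, were both lower on the array labelled null, at 6976 against 6339 (-0.14) and 7211 against 5413 (-0.41). The other 3 probe sets of Ssr1 lay between -0.77 and -0.27. Spcs2 and Spcs3, subunits of the signal peptidase, stood at 6887 against 6577 and 3976 against 4445, differences of -0.07 and 0.16. The 3 subunits of the oligosaccharyltransferase, which attaches the sugar chain, were all higher on the array labelled null. Rpn1 stood at 8770 against 10950 (0.32), Ddost at 4283 against 5168 (0.27) and Rpn2 at 3459 against 3846 (0.15). The 5 Rpn1 probe sets ran from 0.32 to 0.58, so its brightest probe set gave the lowest of their differences.

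**Figure D3:**
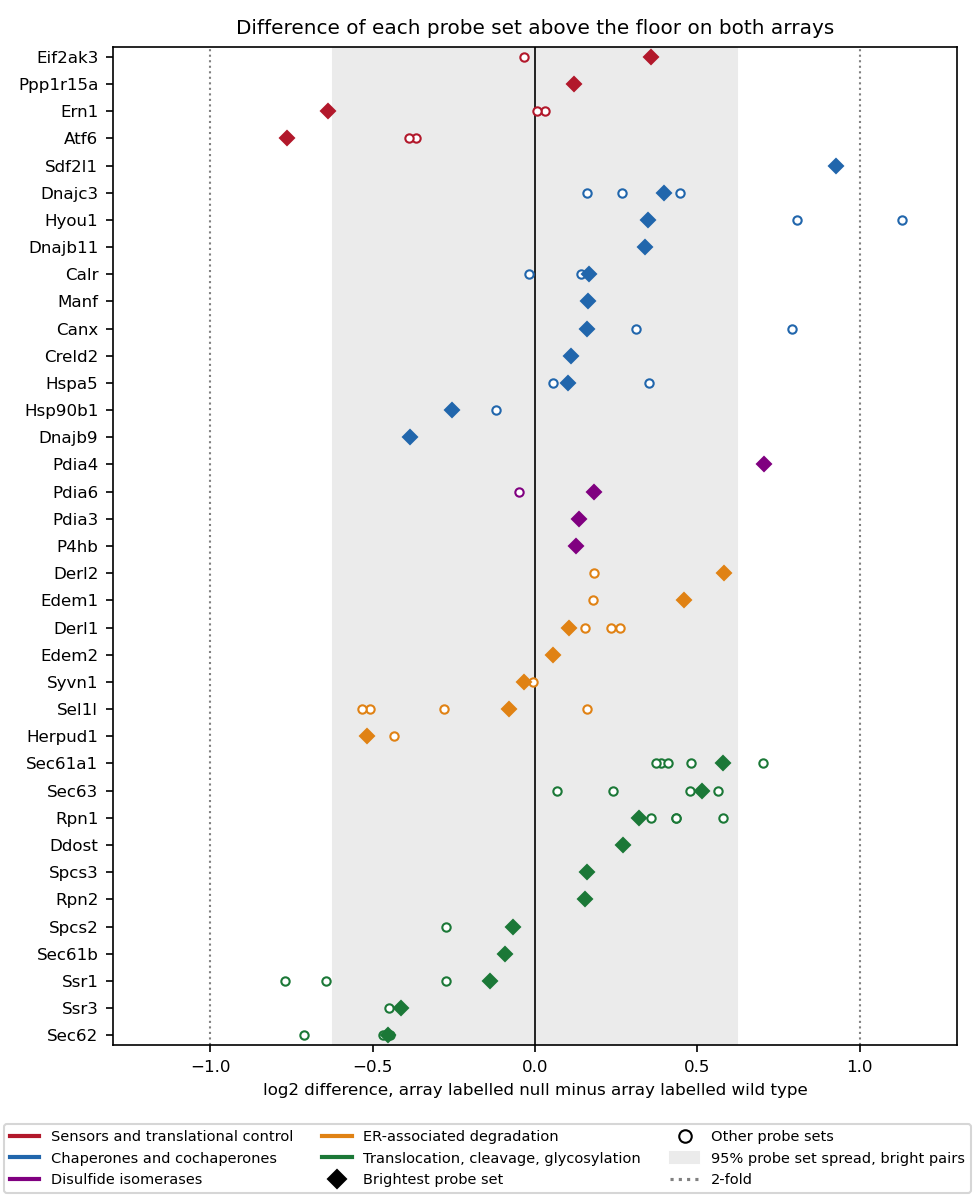
Log2 difference (array labelled null minus array labelled wild type) of each of the 87 probe sets of these genes that passed the floor on both arrays, with a diamond for the brightest probe set of a gene and open circles for its others. The grey band is the 95% probe set spread of bright pairs, 0.62 on either side of 0, the dotted lines mark 2-fold, and 1 probe set, of Hyou1, lies beyond 2-fold. The band holds the error of 2 probe sets and is wider than a band for 1 would be.

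Of the 37 genes, 23 had 2 or more probe sets that passed the floor on each array, and in 18 of these all had the same sign. The signs were mixed in Ern1, Eif2ak3, Calr, Pdia6 and Sel1l. Of the 87 probe sets, 56 were above 0 and 1 was at 2-fold. The brightest probe set is marked as shared in its name in 14 of the 37 genes, among them Hspa5, Hsp90b1, Calr, Canx and P4hb. The kinds of mark were not told apart, so the other transcripts may be of the same gene.

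The chromosomes of the ER genes were set beside their differences, since whole chromosomes were shifted between the arrays. The median difference of all measured genes was -0.47 on chromosome 3, over 453 genes, and 0.24 on chromosome 6, over 433 genes. The share of these genes above 0 was 17.0% on chromosome 3 and 74.1% on chromosome 6. Both ER genes on chromosome 3, Sec62 and Ssr3, were lower on the array labelled null, and relative to their chromosome they stood at 0.02 and 0.06. All 5 on chromosome 6 were higher, namely Pdia4, Sec61a1, Edem1, Eif2ak3 and Rpn1. Relative to their chromosome these 5 had a median of 0.22, with Pdia4 at 0.46 and Rpn1 at 0.08. Pdia4 is then no longer at 1.5-fold, while Derl2, on chromosome 11, comes to 0.59 and is. Sdf2l1 lies on chromosome 16, whose median was -0.10, and stood at 1.03 relative to it. The 30 measured genes on other chromosomes had a median of 0.12, with 20 above 0, beside 50% of all genes.

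The other genes of translocation and glycosylation, from a list of 21, repeated the pattern of chromosome 3. Those on that chromosome were Ssr2, of the translocon-associated complex, at -0.38, Ostc and Krtcap2, of the oligosaccharyltransferase, at -0.39 and -0.33, and Alg5, an enzyme that prepares the sugar donor, at -0.57. A second probe set of Ostc was on the other side, at 0.49. With Sec62 and Ssr3 they made 6 genes, of which 6 were below 0, with a median of -0.40. Of all 453 measured genes of chromosome 3, 376 were below 0. Relative to their chromosome 5 of these 6 were above 0. The 25 measured genes of both translocation lists on other chromosomes had a median of 0.16, with 16 above 0, beside 50% of all genes. Within the oligosaccharyltransferase, Stt3a, a catalytic subunit, stood at 0.55, Dad1 at 0.29 and Stt3b, the other catalytic subunit, at 0.26. Dpagt1, which starts the sugar donor, stood at 545 against 762 (0.48). Grouping these genes by chromosome was chosen after their values were seen, and the cause of the shift of these chromosomes was not tested.

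**Figure D4:**
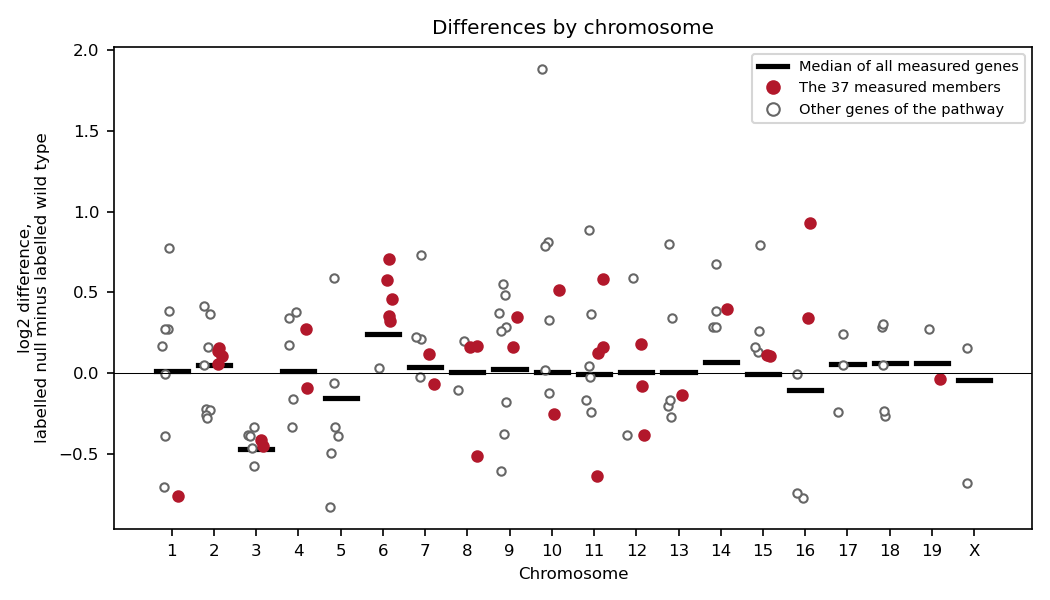
Log2 difference (array labelled null minus array labelled wild type) by chromosome for the 37 measured ER genes (filled) and the other measured genes of the pathway (open), with a black bar at the median of all measured genes of each chromosome. On chromosome 3 all points lie below 0 near the bar at -0.47, and on chromosome 6 the 5 filled points lie above the bar at 0.24.

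The other genes of the pathway, 96 in 5 lists, held 88 genes above the floor on both arrays. Of these 88, 1 was at least 2-fold higher and 0 were 2-fold lower, and 11 were higher and 6 lower at 1.5-fold, with a median of 0.05. Over all 9418 genes the shares are 4.26% and 3.27% at 2-fold and 11.1% and 9.56% at 1.5-fold. The gene at 2-fold was Derl3, the derlin of secretory cells, at 179 against 660, 3.69-fold higher. The factors that act below the sensors were uneven, with some higher on the array labelled null and others hardly different. Xbp1, the factor that IRE1 activates by splicing, stood at 1981 against 3663 (0.89), with 4 probe sets from 0.65 to 1.05. Atf4, whose translation PERK promotes, stood at 4212 against 7303 (0.79), and Ddit3, the CHOP factor below it, at 148 against 260 (0.81). Atf3, another factor of that branch, was at least 2.39-fold higher, at 28.6 below the floor against 148. Atf6b, a relative of Atf6, and Traf2, an adaptor that IRE1 binds, both stood at 0.05. Cebpb, a transcription factor, stood at 0.37, but its other probe set gave -0.14. Mbtps1, the protease of the first cut in ATF6, stood at 0.20 by its brightest probe set. Only 1 of its 3 probe sets was above 0, and their median was -0.12. Nupr1, a stress-induced regulator, was below the floor on both arrays. On the other side was Mbtps2, the protease that makes the second cut in ATF6, at 1975 against 1230 (-0.68). Thus 9 of the 12 measured genes of this list were above 0 by their brightest probe sets, beside 50% of all genes. Their median was 0.27, while Atf6 and Ern1 themselves were lower.

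Among the other folding enzymes, 14 of 19 were above 0, with 5 higher and 3 lower at 1.5-fold, beside 50% of all genes above 0 and 11.1% and 9.56% at 1.5-fold. The oxidases that recharge disulfide isomerases were higher, with Ero1b at 679 against 1185 (0.80) and Ero1a at 1678 against 2680 (0.68). The other probe sets of both went down to 0.00 and 0.06. Erp29, a chaperone without isomerase activity, was lower, at 5921 against 3330 (-0.83), and so was Pdia5, at 329 against 193 (-0.77). Qsox1, a sulfhydryl oxidase, stood near the floor at 79.9 against 137 (0.78). Of the other degradation genes, 7 of 16 were above 0. Os9 and Erlec1, both lectins of the HRD1 complex, stood at 834 against 1437 (0.78) and 520 against 670 (0.37), but the other 2 probe sets of Erlec1 were below 0, down to -0.48. Lower was Edem3, the third EDEM gene, at 2245 against 1377 (-0.71). The direction of Edem3 was thus opposite to that of Edem1.

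The genes of ER exit and retrieval had the lowest median of the 5 lists, -0.10, with 9 of 21 above 0, beside 50% of all genes. Kdelr1, a receptor that returns escaped chaperones to the ER, stood at 1217 against 2025 (0.73), while its relative Kdelr2 stood at 3980 against 3160 (-0.33). Arcn1, a subunit of the COPI coat, stood at 3451 against 2271 (-0.60), but 1 of its 3 probe sets gave 0.17. Sec31a, a coat protein of COPII, stood at 3185 against 2255 (-0.50). Sec24d, a cargo adaptor of the COPII coat on chromosome 3, was at least 3.44-fold lower, at 214 against 59.4, just under the floor.

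**Figure D5:**
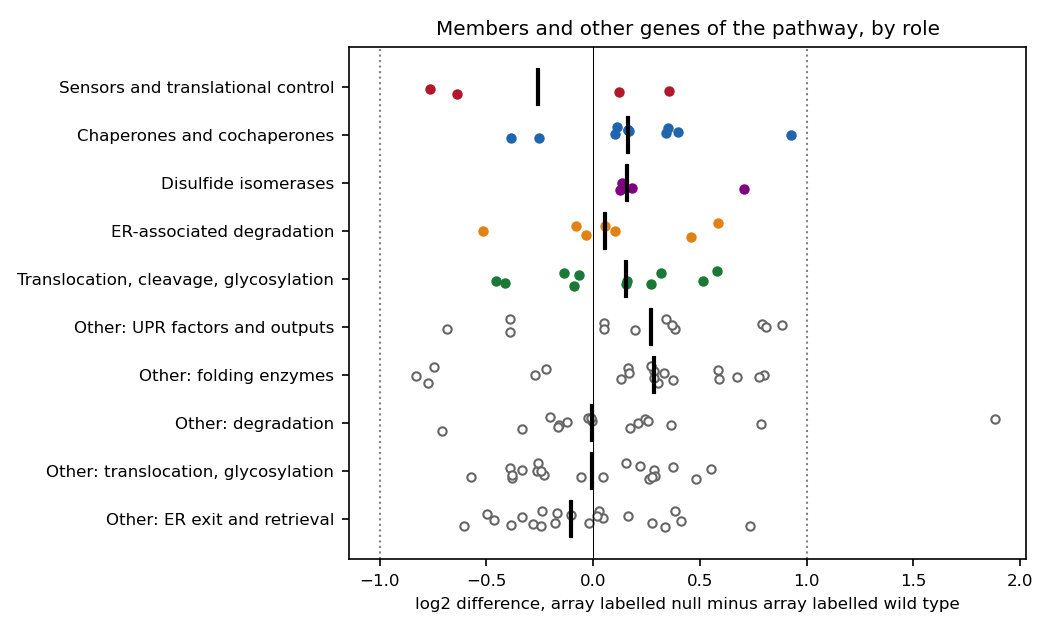
Log2 difference (array labelled null minus array labelled wild type) of the measured ER genes by role (filled) and of the other measured genes of the pathway by list (open), each point 1 gene and the black bar the median, with dotted lines at 2-fold. Derl3 is the 1 point beyond 2-fold, and the medians run from -0.26 for the sensors to 0.28 for the other folding enzymes.

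Genes of other cell types that secrete protein moved with the arrays too. Of 10 stromal and endothelial markers, 3 were above the floor on both arrays, 4 on the array labelled null alone and 1 on the array labelled wild type alone. Their summed signal was 1079 for the former label (wild type) and 3242 for the latter (null). Of 12 macrophage and granulocyte markers, 4 were above the floor on both arrays and 5 on the array labelled null alone, with sums of 466 and 2542. Of the macrophage genes, Lyz2 read 70.1 against 1368 and C1qa 1.27 against 139. Of the stromal genes, Col1a2 read 85.5 against 591, Fn1 162 against 714 and Col3a1 33.6 against 286, and Dcn was below the floor on both arrays. The endothelial genes did not follow, with Pecam1 at 695 against 777 (0.16) and Cdh5 at 68.2 against 20.2, near and below the floor. The granulocyte genes S100a8 and S100a9 were below the floor on both. Over the 37 ER genes the sum was 145271 against 153325. The part of these cells in the ER values was not tested, and in RNA of a whole culture fewer cells of a type and less RNA per cell cannot be told apart.

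Markers of plasma cells, the B-lineage stage with the most extensive ER, were mostly lower on the array labelled null or below the floor. Of 8, the regulator Prdm1, the antibody joining chain Jchain and the receptor gene Tnfrsf17 were below the floor on both arrays. Among the other 5, 4 were below 0, beside 50% of all genes. Bhlha15, which encodes the MIST1 factor of secretory cells, stood at 964 against 100.1, 9.63-fold lower. Irf4, a factor of plasma cell formation, stood at 6590 against 3734 (-0.82), and Slamf7 at 3896 against 2972 (-0.39). Mzb1, a cochaperone of GRP94 in B cells, stood at 11639 against 11415 (-0.03), and the surface proteoglycan gene Sdc1 at 993 against 1106 (0.16). The 4 probe sets of Sdc1 ran from -0.21 to 0.38. The part of cell stage in the ER values was not tested.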

How the data were processed

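The authors deposited MAS5 signal intensities on a linear scale for 45101 probe sets on 2 arrays, per the submitters' processing notes. The MAS5 version and the detection calls are not given in the sources used here. Probe sets were named from the platform annotation (34945 with 1 symbol outside the 64 controls), and 5 listed symbols were updated through a RefSeq table. The brightest probe set by mean log2 signal stood for a gene. Signals below the floor, the median over all probe sets other than controls, were set to it before log2. Genes above it on both arrays are called measured, and genes above it on 1 array have a bound, written as at least that fold. Shared probe sets are those marked a, s, x or f in their name. Calls are folds of 2 or 1.5; precision is limited by having 1 array a group. All 38 members were named, with Cdk4 and, from the lists of other pathway genes, genes at 2-fold and the 4 with the largest differences. Kdelr2, Ero1a, Atf6b, Traf2, Cebpb, Mbtps1, Nupr1, Slamf7, Mzb1, Sdc1, Ssr2, Krtcap2, Dad1, Stt3b, Col3a1, Dcn and other markers were named after their values were seen. Members and lists were chosen with earlier results of these data known. The calculations were tested on simulated data and made with pandas 2.3.3 and numpy 2.4.6 under Python 3.11.15. A planned look at protein C termini was not made, since no protein table was used here.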

Additional observations from a re-analysis of the deposited data

How the results depend on the processing

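Under 8 other settings, and under 1 more chosen after seeing the data (the median of each of 10 bins of signal set to 0), the direction held for the overall median of the measured genes, which ran from 0.11 to 0.18. The chaperone median moved from 0.16 to 0.30 under quantile normalization, 0.33 without shared probe sets and 0.30 with the bins of signal set to 0. The median of the 4 sensor genes turned to 0.12 with a higher floor (the 75th percentile), where Ern1 was no longer measured, and moved to -0.041 with the mean of probe sets. The count lower at 1.5-fold went from 2 to 1 with that floor and with the pseudocount, and to 0 with the mean of probe sets. The count higher at 2-fold became 1 without shared probe sets (Hyou1) and 1 with chromosome medians set to 0 (Sdf2l1). Of 325 single gene values, 6 moved by more than the probe set SD and 0 of the genes at 1.5-fold changed sign. Sec61b and Spcs2 changed sign under quantile normalization and with the bins of signal set to 0, the latter also Edem2 and Syvn1, and Sec62 and Ssr3 did with chromosome medians set to 0. No paired analysis was possible because each group holds 1 array. Leaving out an array was not possible either.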

Other observations

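In some of the ER genes, among them Canx, Ssr1, Hyou1 and Sel1l, dimmer probe sets gave much larger differences than the brightest one. Canx read 7856 against 8786 on its brightest probe set (0.16), 3299 against 4097 on the next (0.31) and 385 against 667 on the dimmest (0.79). Ssr1 read 6976 against 6339 (-0.14) on the brightest and 698 against 409 (-0.77) on a dimmer one, and Hyou1 is described in the text. Sel1l stood at -0.08 on the brightest, and its others ran from -0.53 to 0.16. These genes were picked after their values were seen. The pattern did not hold over the list: in 10 of the 23 genes with more than 1 probe set above the floor the brightest differed by less than the mean of the others, beside 57.2% of 4751 such genes in all.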
